A study of Mus musculus with 8 samples.

Results

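The Dlk1-Dio3 region is an imprinted stretch of mouse chromosome 12 that holds Dlk1, Rtl1, Dio3 and a string of long non-coding RNAs. It was followed here through 10 genes, the rows of the deposited table named Wars, Wdr25, Begain, Dlk1, Meg3, Rtl1, Rian, Mirg, Dio3os and Dio3. They make up 10 of 23767 genes and 34 of 49139 transcripts in the table. For each gene, the transcript with the highest average of both group means stands for the gene. The samples were testes of mice at postnatal day 5 on the 129/SVJ background, 4 wild type and 4 labelled Dio3KO, sequenced as biological replicates. The altered part of Dio3 is not named in the labels, nor whether the allele came from the mother, the father or both. By its title, the study addressed genes that thyroid hormone regulates in the neonatal testis.

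Imprinted genes are read from the chromosome of 1 parent only. In this region Dlk1, Rtl1 and, in many tissues, Dio3 are read mainly from the paternal chromosome, and Meg3, Rian and Mirg from the maternal one, under the control of a differentially methylated stretch between Dlk1 and Meg3. Dio3 encodes the type 3 deiodinase, the selenoenzyme that inactivates thyroid hormones, and its transcription is known to be raised by thyroid hormone in several cell types. Fetal and neonatal testes are among the tissues in which the enzyme is active.

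Values are the authors' group means in RPKM, which scales reads to transcript length and library size, each with the coefficient of variation of its group (CV, the SD divided by the mean). Values of single samples were not used. With 4 samples, no value can lie more than 1.5 SD from its group mean, so the mean and the CV set limits for every sample. The groups are said not to overlap where these limits are apart. Below, a single mouse stands for a single sample, as the sample titles do not say whether testes were pooled. The p-values of the authors' deposited table are adjusted ones, and "rose" and "fell" are kept for transcripts where they are below 0.05. Log2 ratios are Dio3KO-labelled over wild type with 0.5 RPKM added to each mean, and their SE was computed from the CVs. All 10 genes reached 1 RPKM in at least 1 group, but Dio3 and Dio3os did so only in the Dio3KO-labelled group.

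Across the region, 2 genes rose, 2 fell and 6 did not pass. Dio3 and Dio3os rose, and Meg3 and Rtl1 fell. Of 15225 genes with at least 1 RPKM in either group, 14% rose and 15.9% fell, and with 10 genes a count of 2 in either direction is near that background. Means of 8 of the 10 genes were lower in the Dio3KO-labelled group. Among these are Wars and Wdr25, whose direction turned when both groups were scaled to the same total (below). The median log2 ratio of the 10 genes was -0.20, against -0.05 over all genes tested. By transcript, 5 rose and 12 fell, where 11% and 11.9% of all transcripts did so. Transcripts of 1 gene share exons and are not independent.

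**Figure D1:**
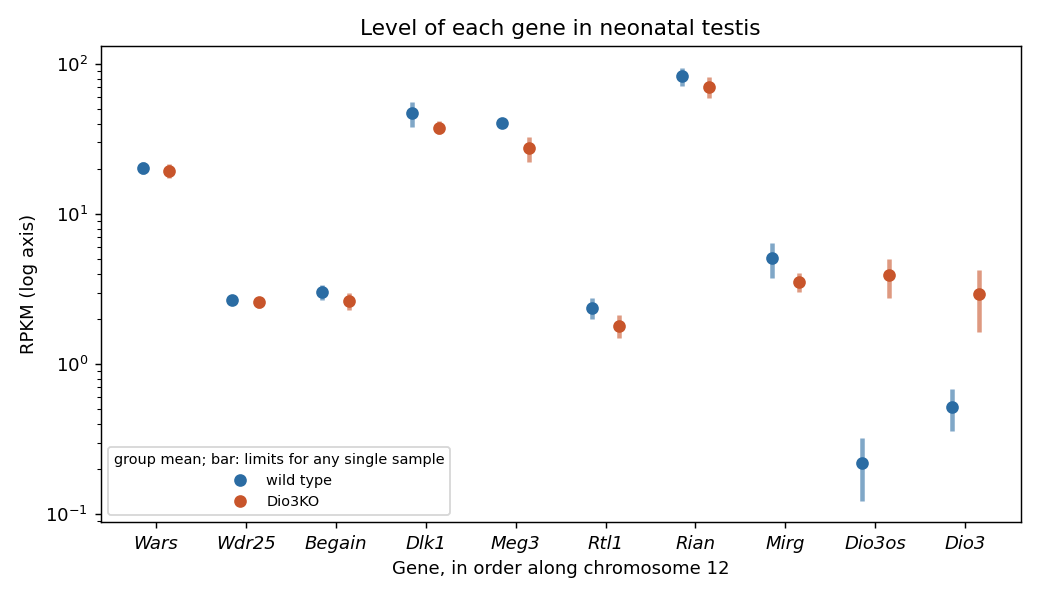
Authors' mean RPKM (points, log axis) of the 10 genes in wild-type and Dio3KO-labelled testes, in order along chromosome 12; bars span the limits within which every single sample must lie. The bars are apart for Meg3 (lower) and for Dio3os and Dio3 (higher).

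Dio3 and Dio3os stand head to head. On chromosome 12 of mm10, GENCODE M21 places Dio3 at chr12:110279068-110281097 (plus strand) and Dio3os, a bidirectional promoter lncRNA, at chr12:110275385-110278172 (minus strand). They are 895 bases apart, and because both rose, the bases just before each annotated start are shown. They come from RefSeq's promoter windows (GRCm38.p6, the assembly of mm10, from C57BL/6J and not from the strain of these mice), are written 5′ to 3′ on the strand of the gene, and have CG pairs in capitals.
Dio3os, chr12:110278173-110278318, minus strand: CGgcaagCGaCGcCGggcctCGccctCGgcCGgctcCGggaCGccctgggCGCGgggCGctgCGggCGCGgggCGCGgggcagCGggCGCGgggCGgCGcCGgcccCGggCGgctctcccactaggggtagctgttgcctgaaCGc
Dio3, chr12:110278980-110279067, plus strand: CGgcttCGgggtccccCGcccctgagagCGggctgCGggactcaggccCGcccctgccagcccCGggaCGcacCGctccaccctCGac

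Both stretches are rich in CG pairs, with 26 in 146 bases for Dio3os and 10 in 88 bases for Dio3. Over the whole RefSeq windows of 300 bases, Dio3os had 53 CG pairs and Dio3 had 25, against a median of 7 over 32851 promoter windows, and 0.45% and 18.4% of all windows had at least as many. The half-site AGGTCA, which thyroid hormone receptors and other nuclear receptors are known to bind, was in neither window on either strand, and 16.3% of all windows held it. Windows were given for 7 of the 10 genes, 12 windows in all, and 1 of these, an inner start of Meg3, held the half-site.

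Dio3 was measured by 1 transcript. It stood at 0.52 RPKM (CV 0.20) in wild-type testes and at 2.95 RPKM (CV 0.29) in Dio3KO-labelled testes, a ratio of means of 5.67. The limits for single mice were 0.357 to 0.686 RPKM in wild type and 1.64 to 4.26 RPKM in Dio3KO-labelled mice, so the groups do not overlap. Bounds were apart in this direction for 12% of all genes tested. Dio3 rose by 1.76 ± 0.19 on the log2 scale (SE) (adjusted p 0.0408 in the authors' deposited table). Since the gene named by the label was higher in the group that bears it, and the altered part is not given, its level checks neither the labels nor the enzyme, and the group is called Dio3KO-labelled throughout.

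Dio3os, a non-coding RNA from the opposite strand, was listed with 4 transcripts, and all 4 rose. The one that stands for the gene went from 0.22 RPKM (CV 0.28) to 3.90 RPKM (CV 0.19), with limits of 0.123 to 0.321 RPKM and 2.76 to 5.05 RPKM for single mice. The others went from 0.12 (CV 0.38) to 3.27 RPKM (CV 0.29), from 0.08 (CV 0.77) to 3.40 RPKM (CV 0.22) and from 0.05 (CV 1.16) to 3.55 RPKM (CV 0.28). In the authors' deposited table their p ran from 0.0156 to 0.0315, and the groups did not overlap for any of the 4. Bounds were apart in this direction for 12% of all genes tested, a share taken over genes and not over transcripts. The log2 ratio of Dio3os was 2.61 ± 0.14 (SE). It was higher than that of 99.9% of all genes tested, and that of Dio3 was higher than 99.6% of them. Both genes entered that set only by their level in the Dio3KO-labelled group, so these ranks describe the values and are not a test. The GENCODE exons of Dio3 and Dio3os share 0 bases. Whether the deposited transcripts of both genes share bases was not checked, and whether reads were counted by strand is not stated.

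The number of reads behind these values can be estimated. Among microRNA genes above 0 in 1 of the 4 wild-type samples, the value of that sample times the hairpin length gathered at 1 smallest step in 57 of 79 cases, and in 58 of 70 in the Dio3KO-labelled group. Taken as the worth of 1 read, that step gives libraries of 28.8 to 45.9 M reads. On that scale, and with the 2030 exon bases of Dio3 in GENCODE, Dio3 rests on about 35.5 reads per wild-type sample and 243 per Dio3KO-labelled sample. For Dio3os, with 1683 exon bases, the same sum gives about 12.4 and 266 reads.

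**Figure D2:**
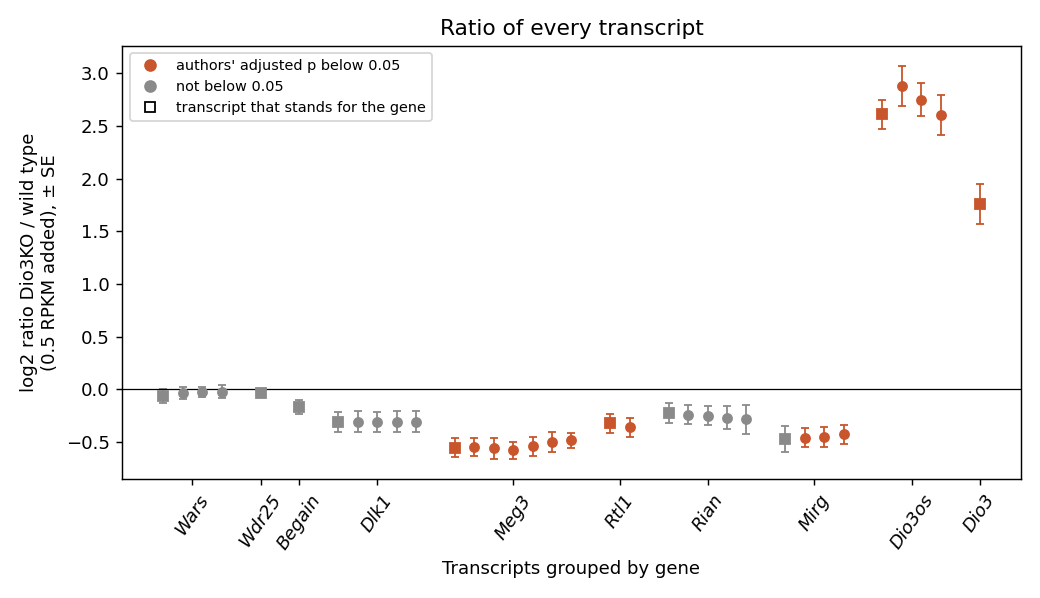
Log2 ratio of Dio3KO-labelled over wild-type means (0.5 RPKM added) with its SE for all 34 transcripts, grouped by gene; squares mark the transcript that stands for the gene, and colour marks an adjusted p below 0.05 in the authors' table. Transcripts of 1 gene are not independent and lie close together, all 7 of Meg3 between -0.58 and -0.49.

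Of the protein genes known to be read mainly from the paternal chromosome, Dio3 rose (above), Rtl1 fell and Dlk1 did not pass. Dlk1 encodes a membrane protein related to Notch ligands that holds back differentiation, known as a marker of fetal Leydig and other progenitor cells. It lies at chr12:109452823-109463336 (plus strand) and was second to Rian in level, at 46.9 RPKM (CV 0.12) in wild type and 37.7 RPKM (CV 0.06) in Dio3KO-labelled testes. The authors' deposited table gives an adjusted p of 0.0981, and limits of 38.1 to 55.7 and 34.0 to 41.4 RPKM allow single mice of the groups to overlap. Its other 4 transcripts had means of 40.1 to 43.4 RPKM in wild type (CV 0.12 to 0.13) and 32.3 to 35.0 RPKM in the Dio3KO-labelled group (CV 0.04 to 0.05), with none past the threshold. All 5 were at 80.4% to 80.6% of their wild-type mean. CVs were higher in wild type for each of them.

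Rtl1, a gene derived from a retrotransposon that the placenta and muscle are known to need, lies at chr12:109589193-109600330 (minus strand) and was lower than Dlk1 in both groups. Its transcripts fell from 2.38 (CV 0.10) to 1.80 RPKM (CV 0.11) and from 2.21 (CV 0.10) to 1.61 RPKM (CV 0.12), where the authors' deposited table gives adjusted p of 0.0398 and 0.0299. The log2 ratio of the gene was -0.32 ± 0.09 (SE). Limits of 2.00 to 2.76 RPKM in wild type and 1.49 to 2.12 RPKM in Dio3KO-labelled mice leave room for a narrow overlap. Rtl1 is known to have an antisense transcript with microRNAs on the maternal chromosome. Whether reads were counted by strand is not stated, so reads from the opposite strand could not be told apart from it.

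Among the maternally read RNAs, Meg3 fell, Mirg passed in 3 of its 4 transcripts but not in the one that stands for it, and Rian did not pass. Meg3, whose RNA is known to bind Polycomb proteins and whose transcription unit opens the maternal series, lies at chr12:109541001-109571726 (plus strand) and fell in all 7 of its transcripts. The standing transcript went from 40.5 RPKM (CV 0.05) to 27.5 RPKM (CV 0.12) (adjusted p 0.0113 in the authors' deposited table). Its log2 ratio was -0.55 ± 0.09 (SE), lower than that of all but 4.09% of genes tested. Single wild-type mice lay between 37.2 and 43.9 RPKM and Dio3KO-labelled mice between 22.3 and 32.6 RPKM, so the groups do not overlap. Bounds were apart in this direction for 12.7% of all genes tested, and, by the transcript that stands for the gene, for Meg3 among the 8 genes with lower means.

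The 7 Meg3 transcripts had a high or a low level. Besides the standing one, 4 were high, at 36.7 (CV 0.05), 35.6 (CV 0.06), 35.5 (CV 0.08) and 31.1 RPKM (CV 0.06) in wild type, and at 24.9 (CV 0.11), 23.6 (CV 0.10), 23.9 (CV 0.12) and 21.2 RPKM (CV 0.11) in the Dio3KO-labelled group. The other two were low, at 5.53 (CV 0.09) and 4.68 RPKM (CV 0.07) in wild type, and at 3.77 (CV 0.12) and 3.20 RPKM (CV 0.09) in the Dio3KO-labelled group. All 7, which are not independent, were left at 66.4% to 68.4% of their wild-type mean, and the groups did not overlap for any of them. Bounds were apart in this direction for 12.7% of all genes tested, a share taken over genes and not over transcripts. The p of the 7 transcripts in the authors' deposited table lay between 0.0071 and 0.0148. GENCODE also has a lincRNA, Gm26906, on the opposite strand at the end of Meg3, and its reads could not be told apart there.

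Rian, host of box C/D small nucleolar RNAs and of microRNAs, lies at chr12:109603940-109661716 (plus strand) and was the most abundant gene of the region. Its 5 transcripts stood in wild type at 82.9 (CV 0.09), 70.3 (CV 0.08), 66.6 (CV 0.07), 44.8 (CV 0.07) and 23.8 RPKM (CV 0.13). In Dio3KO-labelled testes they stood at 70.7 (CV 0.10), 59.3 (CV 0.10), 55.9 (CV 0.10), 37.1 (CV 0.13) and 19.5 RPKM (CV 0.15). None passed, the authors' deposited table giving p from 0.0697 to 0.167, and all were at 81.7% to 85.3% of the wild-type mean. The groups may overlap, since single wild-type mice could be as low as 71.1 RPKM and Dio3KO-labelled mice as high as 81.8 RPKM. The share left was lower for Meg3 than for Rian, and the difference between them was not tested.

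Mirg, the host of the distal microRNA cluster at chr12:109729764-109749460 (plus strand), was at 5.11 RPKM (CV 0.17) in wild type and 3.54 RPKM (CV 0.09) in the Dio3KO-labelled group for its standing transcript (adjusted p 0.0761 in the authors' deposited table). Its other 3 transcripts fell, from 4.97 (CV 0.08) to 3.48 RPKM (CV 0.12), from 4.91 (CV 0.08) to 3.45 RPKM (CV 0.12) and from 4.48 (CV 0.07) to 3.20 RPKM (CV 0.13). For these the authors' deposited table gives adjusted p of 0.0162, 0.0171 and 0.0204, and their groups did not overlap. For the standing transcript the groups may overlap, with limits of 3.76 to 6.46 RPKM in wild type and 3.03 to 4.05 RPKM in Dio3KO-labelled mice. Bounds were apart in this direction for 12.7% of all genes tested, a share taken over genes and not over transcripts. All 4 transcripts of Mirg, which are not independent, had nearly the same ratio, 69.3% to 71.4% of wild type. The one that did not pass had the widest spread among wild-type mice.

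A test moderated across all genes, computed with limma from the means and CVs, called 2 of the 10 genes higher and 5 lower. It called 18.6% of all genes higher and 23.2% lower. Beyond those that passed in the authors' table, it called Mirg (limma adjusted p 0.00511), Dlk1 (0.00982) and Rian (0.0432). The limma adjusted p was 3.96e-07 for Dio3os, 1.5e-05 for Dio3, 0.000234 for Meg3 and 0.018 for Rtl1. Begain (0.116), Wars (0.432) and Wdr25 (0.704) were not called by limma.

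In level per length, wild-type testes ranked the genes Rian, Dlk1, Meg3, Wars, Mirg, Begain, Wdr25, Rtl1, Dio3 and Dio3os. The limits for single wild-type mice overlap between Dlk1 and Meg3, between Begain and Wdr25 and between Wdr25 and Rtl1, so these neighbours are not set apart by their spread. CVs of the region (median 0.095 in each group) were slightly above those of all genes tested (0.08 in wild type and 0.06 in the Dio3KO-labelled group).

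The small RNAs of the region were looked up by a list of 69 names, of which 36 were in the table. Their rows are hairpin-length entries in a total RNA library, so a value covers both arms and any longer RNA that spans the hairpin. Only Mir1247 passed, against 1.37% higher and 0.341% lower among all 293 microRNA genes in the table. Mir1247 (chr12:110278048-110278129, minus strand) lies within an annotated exon of Dio3os on the same strand, and reads of both genes could not be told apart. It was listed at 0 in wild type and at 0.42 RPKM (CV 0.28) in Dio3KO-labelled testes (adjusted p 0.0278 in the authors' deposited table). By its CV, each of the 4 Dio3KO-labelled mice was above 0. At 82 bases this is about 1.4 reads per sample on the scale given above, and a count of 0 over the wild-type group allows up to 0.272 RPKM (3 reads, counting error only).

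The mature sequences of Mir1247 are printed because it moved with Dio3os, and that of Mir453 because it was the most abundant microRNA entry. Mir496a is shown for the seed it shares with Mir453. Sequences are from RefSeq (GRCm38.p6), with the seed, bases 2 to 8, in capitals.
mmu-miR-1247-5p: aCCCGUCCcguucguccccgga
mmu-miR-1247-3p: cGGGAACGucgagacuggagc
mmu-miR-453: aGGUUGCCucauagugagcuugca
mmu-miR-496a-5p: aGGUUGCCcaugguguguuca

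Among 65 mature sequences of 35 matched hairpins there were 60 different seeds, and 5 seeds were shared by a pair of hairpins. Mir453, inside Mirg, was at 2.51 RPKM (CV 0.40) and 2.06 RPKM (CV 0.48), and Mir496a at 0.20 (CV 2.00) and 0.26 RPKM (CV 0.70). A CV of 2.00 means that 1 of 4 samples was above 0, and 14 of the 36 entries had it in at least 1 group. The highest entry of all, the small nucleolar RNA AF357425, was at 6.37 RPKM (CV 0.13) and 5.59 RPKM (CV 0.09) (adjusted p 0.2612 in the authors' deposited table). Means were lower in Dio3KO-labelled testes for 25 entries, higher for 10 and equal for 1, with a median log2 ratio of -0.22, against -0.10 over all microRNA genes in the table. Summed levels were 8.00 and 6.79 RPKM over the 11 entries within Mirg (6 lower, 5 higher). They were 7.19 and 4.58 RPKM over the 20 entries that lie between the genes (15 lower, 4 higher, 1 equal), and 0.73 and 0.37 RPKM over the 2 within Rian (both lower).

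**Figure D3:**
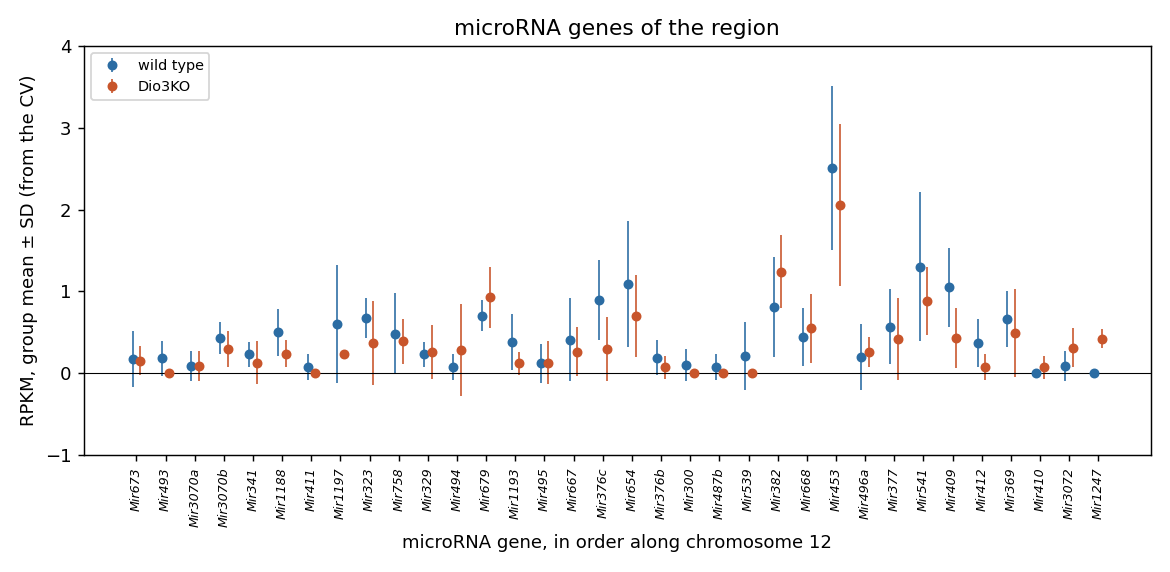
Mean RPKM with the SD computed from the CV for the microRNA genes of the region with a RefSeq position, in order along chromosome 12, in wild-type and Dio3KO-labelled testes. Mir453 is the highest at 2.51 and 2.06 RPKM, and Mir1247 at the far end is at 0 in wild type and 0.42 RPKM in Dio3KO-labelled mice.

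At the proximal edge of the region, Begain (chr12:109032187-109068217, minus strand), Wdr25 (chr12:108893631-109028452, plus strand) and Wars (chr12:108860030-108894174, minus strand) did not pass. The spans of Wars and Wdr25 share 544 bases and their exons 0. Begain, known as a protein of neuronal synapses, was at 3.02 RPKM (CV 0.07) and 2.63 RPKM (CV 0.08) (adjusted p 0.0983 in the authors' deposited table). Wdr25, a WD repeat gene, was at 2.67 (CV 0.04) and 2.59 RPKM (CV 0.05). Wars, the cytoplasmic tryptophanyl-tRNA synthetase, had 4 transcripts, at 20.4 (CV 0.06), 19.4 (CV 0.06), 19.1 (CV 0.05) and 18.0 RPKM (CV 0.06) in wild type and at 19.5 (CV 0.07), 18.9 (CV 0.05), 18.7 (CV 0.05) and 17.7 RPKM (CV 0.06) in the Dio3KO-labelled group. Wdr25 was at 97.0% and the Wars transcripts at 95.6% to 98.4% of their wild-type means. When both groups were scaled to the same total, the log2 ratio of Wars turned from -0.06 to 0.04 and that of Wdr25 from -0.04 to 0.06, so neither has a direction.

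Beyond the region, 22 other annotated genes within 1 Mb of its outermost genes had at least 1 RPKM, 10 before Wars and 12 after Dio3. Of these, 4 rose, 0 fell and 18 did not pass (median log2 ratio 0.07), where 14% of all genes tested rose and 15.9% fell, so the count that rose is near that background. Those that rose were Slc25a29, a mitochondrial carrier of basic amino acids (1.70 to 2.60 RPKM), Degs2, a sphingolipid desaturase (9.52 to 11.6 RPKM), Zfp839 (5.36 to 8.18 RPKM) and Tecpr2 (3.51 to 4.73 RPKM). The nearest measured gene after Dio3, the phosphatase subunit Ppp2r5c, was at 39.0 and 37.7 RPKM (adjusted p 0.3025 in the authors' deposited table). Among the 18 that did not pass, log2 ratios ran from -0.34 for Ccnk to 0.38 for Ccdc85c. Of these, 8 (Setd3, Ccdc85c, Cyp46a1, Evl, Yy1, Dync1h1, Rcor1 and Traf3) had ratios above 0, 9 (Ccnk, Slc25a47, Ppp2r5c, B930059L03Rik, Hsp90aa1, Wdr20, Mok, Cinp and Ankrd9) below 0, and Eml1 had equal means. The highest ratio among the neighbours, 0.57 for Zfp839, was below those of Dio3 and Dio3os in the plot of ratios by position.

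**Figure D4:**
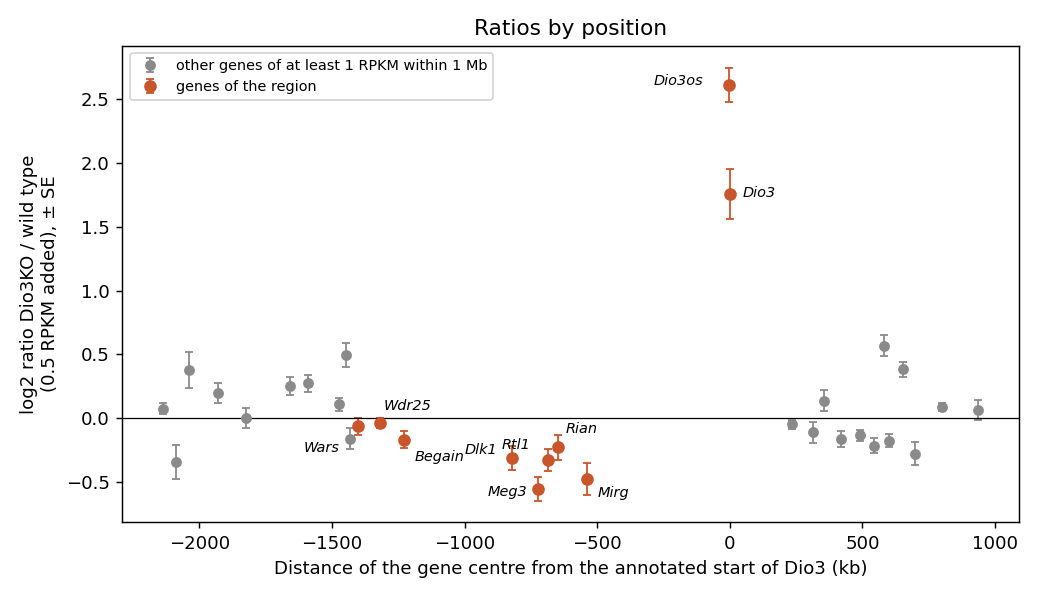
Log2 ratio (0.5 RPKM added) with its SE against the distance of the gene centre from the annotated start of Dio3, for the 10 genes of the region and 22 neighbours. Dio3os (2.61) and Dio3 (1.76) stand above every neighbour. Dlk1, Rtl1, Meg3, Rian and Mirg lie below 0, as do several neighbours, down to -0.34 for Ccnk.

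The factors known to set or keep imprints were read from a list, beside the background of 14% higher, 15.9% lower and a median of -0.05 over all genes, which holds for the lists that follow. Of 18 measured at 1 RPKM or more, 8 fell, 2 rose and 8 did not pass (median log2 ratio -0.14). Zfp57, the zinc finger protein that guards methylated imprints, fell from 4.51 (CV 0.07) to 2.56 RPKM (CV 0.14) (adjusted p 0.0051 in the authors' deposited table). Uhrf1, which brings Dnmt1 to replicating DNA, fell from 55.1 to 36.5 RPKM, and Ezh2, the Polycomb methyltransferase, from 18.0 to 12.6 RPKM. Setdb1 (35.5 and 30.9 RPKM) and Zfp445 (23.7 and 22.4 RPKM) did not pass. The pair that rose, named after their values were seen, were the DNA methyltransferase Dnmt3a (30.8 to 33.6 RPKM) and the dioxygenase Tet3 (8.70 to 10.5 RPKM).

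Genes elsewhere in the genome that are known to be imprinted in at least some tissues went both ways. Whether each is imprinted in the testis was not checked. Of 28 with at least 1 RPKM, 4 rose, 4 fell and 20 did not pass (median log2 ratio -0.03). Nnat, a small membrane protein, fell from 42.4 to 17.3 RPKM, Plagl1, a zinc finger regulator of other imprinted genes listed under its older name Zac1, from 28.3 to 15.7 RPKM, and the growth factor Igf2 from 56.6 to 39.2 RPKM. The fourth was the non-coding RNA H19 (377 to 234 RPKM). Those that rose were Copg2 (36.3 to 44.6 RPKM), Peg10 (9.44 to 13.2 RPKM), Gatm (145 to 201 RPKM) and Dcn (357 to 600.1 RPKM). Dcn is also among the mesenchyme markers below. H19 and the 4 that rose were named after their values were seen. Gnas (513 and 543 RPKM) and Ndn (78.4 and 81.1 RPKM) did not pass.

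Dio3 protein carries selenocysteine, so a list of genes linked to its insertion was also read. Whether each of them helps or hinders insertion was not taken into account. Of 9 measured, 4 fell, 0 rose and 5 did not pass (median log2 ratio -0.16). Rpl30, a ribosomal protein that binds the selenocysteine insertion element, fell from 553 to 417 RPKM, Sephs2, which makes the selenium donor, from 24.2 to 18.9 RPKM, and the kinase Pstk from 17.9 to 15.3 RPKM. Eif4a3, named after its value was seen, fell from 106 to 92.0 RPKM. Ncl (24.9 and 23.1 RPKM) and Trnau1ap (22.5 and 22.3 RPKM) did not pass.

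Whole testis mixes several cell types, and in such bulk samples fewer cells of a type and less RNA per cell cannot be told apart. The labels give testis as the tissue while the extraction text names hypothalami. Of 15 hypothalamic markers, 4 reached 1 RPKM, and all 15 together summed to 13.7 and 11.6 RPKM, against 1149 and 1181 RPKM for 9 Sertoli cell markers (2 rose, 4 fell, median log2 ratio -0.23). The sum and the median of the Sertoli list differ in direction. Cldn11 (83.6 to 299.9 RPKM) and Wt1 (60.0 to 67.1 RPKM) rose. Amh (284 to 127 RPKM), Fshr (17.8 to 9.49 RPKM), Gata4 (76.8 to 62.1 RPKM) and Dhh (82.4 to 64.2 RPKM) fell. These Sertoli markers were named after their values were seen. Of the hypothalamic markers with at least 1 RPKM, 0 rose and 2 fell. Steroidogenic Leydig cell markers summed to 577 and 793 RPKM (5 of 10 rose, 1 fell), and those of interstitial mesenchyme to 931 and 1337 RPKM (2 of 8 rose, 1 fell). Markers of macrophages summed to 49.7 and 106 RPKM (6 of 7 with at least 1 RPKM rose) and those of endothelium to 70.3 and 89.05 RPKM (5 of 8 rose). Germ cell markers summed to 283 and 257 RPKM (0 of 10 passed), peritubular ones to 577 and 529 RPKM (2 of 6 rose, 2 fell) and those of red blood cells to 1197 and 1036 RPKM (0 of 3 passed). No marker was at 0 in either group. The part of these shifts in the values of Dlk1, Meg3, Mirg, Rtl1, Dio3 and Dio3os was not tested.

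The genes nearest to Dio3 in both group means were Thrsp (0.58 and 2.96 RPKM), Iqch (0.41 and 3.03 RPKM) and Fyb2 (0.42 and 2.64 RPKM). Those nearest to Meg3 were Slc20a1 (40.4 and 27.5 RPKM), Gmnn (39.3 and 26.9 RPKM) and Rfc2 (41.7 and 28.1 RPKM). Likeness was measured over 2 group means, as the distance on the log2 scale, and many genes can share such a pair of values. Thrsp is known as a gene that thyroid hormone induces in liver. Gmnn and Rfc2 are known for their roles in DNA replication. Roles of Iqch, Fyb2 and Slc20a1 were not looked up, and whether any of these roles bears on the values was not tested.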

How the data were processed

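Total RNA of 8 testis samples was sequenced. FastQC, Novoalign 2.08 and the build mm10 are named in the submitters' processing notes, without role or order. Not given in the sources used here are counting tool, annotation, strandedness and statistical test. What the authors deposited are group means in RPKM, the CV of each group, a ratio of SD to mean, and adjusted p-values, per the file headers. Each of 49139 transcripts stood on 3 equal lines, of which 1 was kept. Of 24582 deposited symbols, 18080 were current, 2556 older names and 3946 had no match. The highest CV, 2.00, is what an SD with n - 1 gives when 1 of 4 samples is above 0.

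Genes with at least 1 RPKM in either group were tested (15225). The limits for single samples add the rounding error (0.005) to means and CVs. The moderated test took log2-scale variances from the CVs (set to at least 0.0025), shrank them with limma 3.58.1 (squeezeVar, trend and robust, 6 residual degrees of freedom, R 4.3.3) and adjusted by Benjamini-Hochberg. It was also run on simulated samples with the same CV in both groups, which differs from these data, and no error rate is taken from that run. Tables were joined with pandas 2.3.3 in Python 3.11.15.

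Named are all 10 genes, all neighbours of at least 1 RPKM, of each pathway list up to 3 members that passed (smallest p) and 2 that did not (highest level), and the 3 genes nearest to Dio3 and Meg3, leaving out predicted, pseudo- and Y-linked genes. The genes and lists were chosen with earlier results of these data known. Alternatives were other thresholds, pseudocounts, scalings, transcripts and the limma test.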

Additional observations from a re-analysis of the deposited data

How the results depend on the processing

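Dio3 and Dio3os were the genes called higher in the authors' table, and the count of 2 was the same under the limma test. It was also the same with the transcript of smallest p, with a fold of at least 1.5 and with no filter. Those settings could not lower it. The standing transcripts already have the smallest p, both ratios are well above 1.5, and lifting a filter removes no gene. The count of 2 became 0 at an authors' p below 0.01 and 0 at a minimum of 5 RPKM, which neither gene reaches. The count of 2 lower (Meg3 and Rtl1) became 5 under limma (5 also at an unadjusted limma p below 0.05), 3 with the transcript of smallest p, 0 at an authors' p below 0.01, 0 with a fold of at least 1.5 and 1 at a minimum of 5 RPKM, so it depends on the test, the transcript and the threshold. The share of all genes called is given for the main setting and for limma only. Under the other settings, a change in these counts cannot be told from a change over all genes. Of 50 alternative log2 ratios of the 10 genes, 42 moved by less than 1 SD between samples. None of the called genes changed direction, but these settings could not have turned them. Adding the same amount to both means keeps the direction, and the scalings shift ratios by less than those of the called genes. All transcripts of each called gene also have the same direction. The log2 ratio of Dio3os ran from 2.01 with 1 RPKM added to 3.91 for the sum of its transcripts, and that of Dio3 from 1.38 to 2.30 with 1 and 0.1 RPKM added. Equal totals raise every log2 ratio by 0.10. All 6 alternative list medians stayed within the spread of their lists. Low levels rest on few reads, most of all for the microRNA entries. No paired analysis was possible because the table holds group means, and for the same reason no replicate could be left out.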
